A study of Mus musculus with 2 samples.

Results

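The 41 genes described here code for matricellular proteins, elastic fibre components, small leucine-rich and large proteoglycans and enzymes that mature or crosslink collagen. They were listed by the role of their products. A gene was taken as measured where a probe was annotated to exactly 1 gene symbol, and by its brightest such probe, which gave 37 of the 41 genes and 22180 genes in all. RNA of the gastrocnemius muscle was taken on day 3 after unilateral hindlimb ischemia (HLI, ligation of the femoral artery) from homozygous *Mapk10*-/- mice, in which the gene for JNK3 is lost in the whole body and not in muscle alone, and from wild-type (WT) mice of matched age from the same crosses of heterozygotes on C57Bl6/J. Both groups were described as males of 8 to 12 weeks that had undergone the same ischemia. RNA of 3 mice was pooled for each genotype and hybridised to 1 Affymetrix MoGene 2.0 ST array, so the 2 arrays allow neither a measure of variation between mice nor a p-value. The comparison asks which transcripts differ with loss of JNK3 in muscle recovering from ischemia. One label names gastrocnemius alone as the source of the RNA and another adds the thigh adductor, and uninjured muscle was not analysed here.

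Matricellular proteins such as periostin, tenascin-C and the thrombospondins are secreted into the matrix after injury and act on cells through integrins and other receptors more than they bear load. Elastic fibres consist of elastin laid on a scaffold of fibrillin microfibrils with fibulins and microfibril-associated proteins. Small leucine-rich proteoglycans such as decorin bind collagen fibrils and set their diameter, and lysyl oxidases crosslink collagen and elastin. In injured muscle these genes are expressed mainly by fibroblasts, with contributions from macrophages, tendon cells, vessel wall cells and regenerating fibres. In pooled tissue, fewer cells of a type and less RNA per cell cannot be told apart.

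The differences among these genes went both ways and did not add up to a shift of the group. *Aspn* (asporin), *Postn* (periostin) and *Mfap5* were at least 1.5-fold higher in *Mapk10*-/- muscle. *Vcan* (versican), *Efemp1* (fibulin-3), *Lox* (lysyl oxidase) and *Thbs1* (thrombospondin-1) were at least 1.5-fold lower. That is 3 higher and 4 lower of 37, against 4.1% higher and 3.69% lower of all 22180 genes. The other 30 measured members stayed within 1.5-fold, and the median log2 difference (*Mapk10*-/- minus WT) over the 37 was -0.0048, against 0 over all genes.

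Sequences upstream of the genes past 1.5-fold are shown first, since these are the members on which the results turn. The motifs searched in them are those of transcription factors that the study followed (EGR and CREB), of AP-1, to which JNK signals, and of the core promoter. The windows are the 250 bases before the annotated start, 5′ to 3′ on the strand of the gene, from the RefSeq promoter table (GRCm38.p6), in which 27 of the 41 members were found. *Mfap5*, *Thbs1* and *Lox* are named only. *Ogn* (osteoglycin) is added as a neighbour of *Aspn* that stayed within 1.5-fold. Capitals mark matches on either strand to AP-1 (TGANTCA), the cAMP response element (TGACGTCA), the EGR motif (GCGNGGGCG), the GC box (GGGCGG) and the TATA box (TATAAA). The EGR motif and the GC box can overlap. The *Aspn* and *Ogn* windows lie at chr13:49544193-49544442 and chr13:49607765-49608014 (plus strand), the *Postn* windows, 1 for each of its annotated starts, at chr3:54360857-54361106 and chr3:54359017-54359266 (plus strand), the *Vcan* window at chr13:89742513-89742762 (minus strand) and the *Efemp1* window at chr11:28852955-28853204 (plus strand).
Aspn: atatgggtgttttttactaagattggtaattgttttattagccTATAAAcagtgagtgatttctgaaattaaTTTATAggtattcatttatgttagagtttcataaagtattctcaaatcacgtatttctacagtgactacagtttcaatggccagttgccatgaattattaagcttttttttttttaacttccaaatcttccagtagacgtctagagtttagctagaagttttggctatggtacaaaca
Postn, downstream start: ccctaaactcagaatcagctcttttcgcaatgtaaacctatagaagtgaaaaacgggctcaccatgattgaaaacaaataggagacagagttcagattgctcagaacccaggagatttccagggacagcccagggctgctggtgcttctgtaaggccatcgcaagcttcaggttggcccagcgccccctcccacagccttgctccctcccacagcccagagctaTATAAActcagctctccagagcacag
Postn, upstream start: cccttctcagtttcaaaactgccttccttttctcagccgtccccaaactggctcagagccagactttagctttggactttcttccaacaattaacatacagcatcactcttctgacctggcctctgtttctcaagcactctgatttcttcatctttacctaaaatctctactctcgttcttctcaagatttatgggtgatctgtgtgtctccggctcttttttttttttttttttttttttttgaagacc
Vcan: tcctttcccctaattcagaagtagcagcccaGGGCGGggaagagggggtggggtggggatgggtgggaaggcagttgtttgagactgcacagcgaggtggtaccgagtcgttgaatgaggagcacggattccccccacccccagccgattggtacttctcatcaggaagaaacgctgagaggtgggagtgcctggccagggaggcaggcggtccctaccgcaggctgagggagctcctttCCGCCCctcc
Efemp1: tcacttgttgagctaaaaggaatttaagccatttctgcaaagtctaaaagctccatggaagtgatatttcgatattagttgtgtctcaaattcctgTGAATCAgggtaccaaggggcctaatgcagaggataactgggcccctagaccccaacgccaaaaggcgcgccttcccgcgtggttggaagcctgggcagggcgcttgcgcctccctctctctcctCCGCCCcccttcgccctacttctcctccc
Ogn: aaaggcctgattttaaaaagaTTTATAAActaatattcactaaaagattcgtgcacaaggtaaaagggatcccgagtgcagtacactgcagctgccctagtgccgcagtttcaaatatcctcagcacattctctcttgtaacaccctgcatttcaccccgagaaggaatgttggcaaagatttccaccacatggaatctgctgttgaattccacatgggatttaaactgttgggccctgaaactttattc

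The *Postn* window of the downstream start had a TATA box whose first base lies 26 bases before the start, and that of the upstream start had no match to any of the motifs. *Aspn* had TATA box letters 207 and 178 bases before the start and *Ogn* overlapping ones 229 and 227 bases before it. *Vcan* had GC boxes 219 and 10 bases before its start, and *Efemp1* had an AP-1 match 154 bases and a GC box 29 bases before its start. The AP-1 pattern searched takes any base at N, and the *Efemp1* match reads TGAATCA, where the usual site has C or G. The AP-1 counts and shares given here are those of this wider pattern. A match describes the letters and is not a measured binding site. Over 32851 promoter windows of the same length, a TATA box was present in 12.4%, a GC box in 32.7%, an AP-1 match in 6.75%, an EGR motif in 4.70% and a cAMP response element in 1.55%. Of the 35 windows of the 27 members, 8 held a TATA box, 20 a GC box, 2 an AP-1 match (*Efemp1* and *Tnxb*), 3 an EGR motif (of *Fbln1* and *Tnc*) and 0 a cAMP response element. Windows of 1 gene are not independent, and counted by gene the TATA box was found for 7 and the GC box for 17 of 27. Of the 4 genes past 1.5-fold that are shown, 2 had the TATA box letters and no GC box. These were *Aspn*, 207 and 178 bases before its start, and *Postn*, 26 bases before its downstream start. *Vcan* and *Efemp1* had the GC box and no TATA box. Among members within 1.5-fold, *Ogn* and *Thbs2* also had the TATA box letters and no GC box, and *Chad* and *Tnc* had both. Others within 1.5-fold, such as *Bgn* and *Hspg2*, had the GC box and no TATA box. Whether the motifs go with the direction of a difference was not tested.

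Before the values of single genes, the arrays themselves had features that bear on every difference. The signal is the authors' processed intensity on a linear scale, and its median over all probes was 41.2 on the *Mapk10*-/- array and 43.2 on the WT array. *Mapk10* itself was dim, with a signal of 17.7 in *Mapk10*-/- and 25.2 in WT muscle (log2 difference -0.51), and the sources used here do not say whether its probe lies in the deleted stretch, so this value does not check the labels. *Xist*, the RNA of the inactive X chromosome, had a signal of 23.0 in *Mapk10*-/- and 554.0 in WT muscle, and *Eif2s3y*, *Uty* and *Kdm5d* on the Y chromosome had log2 differences of 1.11, 1.31 and 0.80. These values on the WT array go against the description of all mice as males. Whether the labels of the arrays were exchanged could not be checked from these values, and an exchange would turn every direction given here. With 1 array per genotype, a difference in the sex of the pooled mice and the genotype cannot be told apart in any value below. The only error available comes from genes read by 2 probes. How far both probes disagree on the log2 difference gave a technical SD of 0.29 over 968 such genes. It leaves out the spread between mice, pools and arrays.

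**Figure D1:**
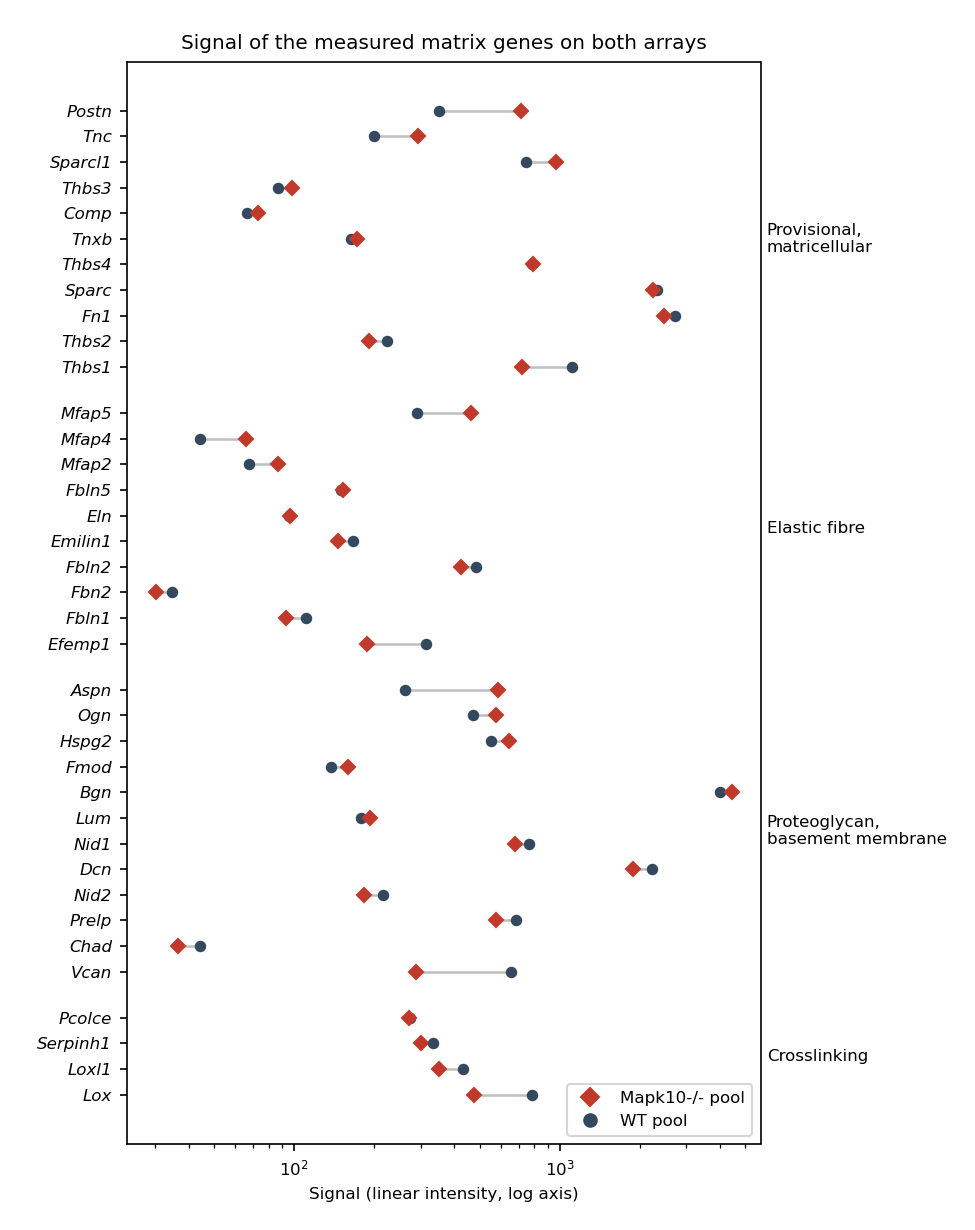
Signal of the 37 measured genes (linear intensity, log axis) on the Mapk10-/- array (diamonds) and the WT array (circles), grouped by role and ordered by the difference. Aspn, Postn and Vcan stand out by the length of the line between the arrays, while for Thbs4 and Eln the points coincide.

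A gene was counted as higher or lower when its signal differed by at least 1.5-fold, a rule of size that stands in for a test. By this rule 8.11% of the measured members were higher and 10.8% lower in *Mapk10*-/- muscle. The members were mostly bright, with a mean signal that reached the median of all genes (55.8) for 34 of 37. Among the 11090 genes as bright as that, 6.15% were higher and 2.42% lower. With counts of 3 and 4 genes these shares have little precision, and none of them was tested. The difference lay within the technical SD of 0 for 25 of the 37 members (67.6%) and for 68.6% of all genes. The median size of the difference was 0.22 for the members and 0.20 for all genes. Of the members, 18 lay above 0 and 19 below.

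**Figure D2:**
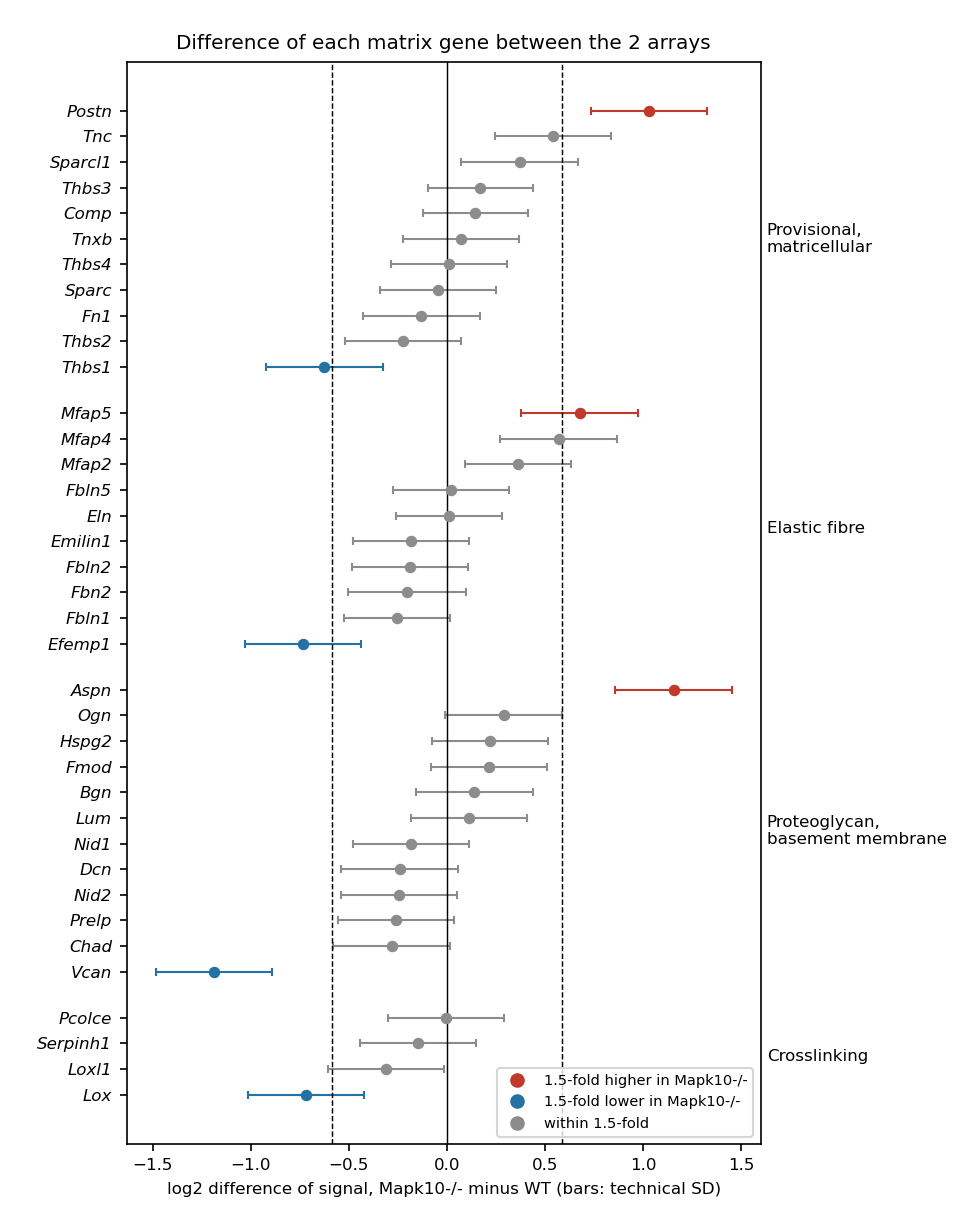
log2 difference of signal (Mapk10-/- minus WT) of the 37 measured genes by role. Bars are the technical SD and dashed lines mark 1.5-fold. Each role but crosslinking holds 1 gene past the line on either side, and the 4 crosslinking genes all lie at or below 0.

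Among 11 measured provisional and matricellular genes, 1 was higher and 1 lower, and the median log2 difference was 0.07. *Postn*, a fasciclin-domain protein that binds integrins and collagen and is made by activated fibroblasts, had a signal of 713.8 in *Mapk10*-/- and 349.7 in WT muscle, 2.04-fold higher (log2 difference 1.03, technical SD 0.30). Of all genes, 0.726% had a difference at least as high. *Tnc* (tenascin-C), which appears with periostin in wounds and regenerating muscle, had a signal of 291.9 in *Mapk10*-/- and 200.4 in WT muscle. Its log2 difference of 0.54 was outside the technical SD but short of 1.5-fold. The difference between *Postn* and *Tnc* was 0.49 with a technical SD of 0.42, which is little more than the disagreement of probes. *Sparcl1* (hevin) had 966.3 in *Mapk10*-/- and 747.5 in WT muscle (0.37), beside its relative *Sparc* with 2251 in *Mapk10*-/- and 2320 in WT muscle (-0.04).

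*Fn1* (fibronectin), the main scaffold of the provisional matrix, differed little, with 2480 in *Mapk10*-/- and 2714 in WT muscle (-0.13). *Tnxb* (tenascin-X), a tenascin of resting connective tissue, had 171.8 in *Mapk10*-/- and 163.3 in WT muscle (0.07). *Thbs1*, a trimeric thrombospondin that activates latent TGF-β and restrains angiogenesis, had a signal of 723.3 in *Mapk10*-/- and 1115 in WT muscle, 1.54-fold lower (log2 difference -0.62). Of the 7 members past 1.5-fold it was the nearest to the line. The other members of its family stayed within 1.5-fold: *Thbs2*, the other trimeric form, had 192.1 in *Mapk10*-/- and 224.3 in WT muscle (-0.22), and the pentameric *Thbs3*, *Thbs4* and *Comp*, which are typical of tendon and cartilage, were at 0.17, 0.01 and 0.15. *Thbs1* lay 0.77 below *Comp* (technical SD of this difference 0.40) and 0.40 below *Thbs2* (0.42).

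In the elastic fibre group, 10 of 12 genes were measured, 1 was higher and 1 lower, and the median was -0.08. *Eln* (elastin), the rubber-like core, had a signal of 96.3 in *Mapk10*-/- and 95.5 in WT muscle, a log2 difference of 0.01. The small microfibril-associated proteins stood on the higher side. *Mfap5*, which binds fibrillin, had 462.1 in *Mapk10*-/- and 289.1 in WT muscle, 1.60-fold higher (0.68). *Mfap4*, a fibrinogen-domain protein of elastic fibres and vessel walls, had 65.8 in *Mapk10*-/- and 44.3 in WT muscle (0.57), just inside the line, and *Mfap2*, the relative of *Mfap5*, had 86.7 in *Mapk10*-/- and 67.5 in WT muscle (0.36). These 3 lay outside their technical SD. *Emilin1*, which sits between elastin and microfibrils, was at -0.18.

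Fibulins lay on the other side of 0 from the microfibril-associated proteins, except *Fbln5*. *Efemp1*, a fibulin of fascia and basement membranes, had a signal of 188.5 in *Mapk10*-/- and 313.6 in WT muscle, 1.66-fold lower (-0.73). *Fbln1*, a fibulin that binds fibronectin, had 93.0 in *Mapk10*-/- and 110.9 in WT muscle (-0.25), and *Fbln2*, a ligand of versican and perlecan, had 423.1 in *Mapk10*-/- and 482.3 in WT muscle (-0.19), both within the technical SD. *Fbln5*, which links elastin to integrins and is needed for elastic fibre assembly, had 152.5 in *Mapk10*-/- and 150.4 in WT muscle (0.02), and *Efemp1* lay 0.75 below it (technical SD 0.42). *Fbn2*, the fibrillin of developing tissue, was dim, with 30.0 in *Mapk10*-/- and 34.6 in WT muscle. *Fbn1* (fibrillin-1), *Efemp2* (fibulin-4) and, of the matricellular group, *Spp1* (osteopontin) matched no probe by symbol or gene ID and were not analysed here.

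Proteoglycans and basement membrane linkers held the largest differences in both directions among the members. All 12 were measured, 1 was higher and 1 lower, and the median was -0.04. *Vcan*, a large chondroitin sulfate proteoglycan that binds hyaluronan in the early wound matrix, had a signal of 287.7 in *Mapk10*-/- and 656.0 in WT muscle, 2.28-fold lower (-1.19). A difference at least as low was found in 0.329% of all genes. *Hspg2* (perlecan), the large heparan sulfate proteoglycan of basement membranes, had 641.8 in *Mapk10*-/- and 550.9 in WT muscle (0.22), so that *Vcan* lay 1.41 below it with a technical SD of 0.42. *Nid1* and *Nid2*, which join laminin to collagen IV in the basement membrane, were at -0.18 and -0.24, and the dimmer probe of *Nid1* was at -0.02.

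*Aspn*, a class I small leucine-rich protein that binds collagen and TGF-β, had a signal of 583.8 in *Mapk10*-/- and 262.0 in WT muscle, 2.23-fold higher (1.16). A difference at least as high was found in 0.419% of all genes. Its class I relatives *Dcn* (decorin) and *Bgn* (biglycan) differed far less. *Dcn* had 1884 in *Mapk10*-/- and 2227 in WT muscle (-0.24), and *Bgn* had 4446 in *Mapk10*-/- and 4034 in WT muscle (0.14), or -0.12 on its dimmer probe. *Aspn* lay 1.40 above *Dcn* and 1.02 above *Bgn* (technical SD 0.42 for each). The class II genes *Lum* (lumican), *Fmod* (fibromodulin) and *Prelp*, which regulate fibril assembly, were at 0.11, 0.21 and -0.26, and the second probe of *Fmod* was at -0.21. *Chad* (chondroadherin), a protein of cartilage and tendon, was dim, with 36.4 in *Mapk10*-/- and 44.2 in WT muscle. *Ogn*, of class III, had 575.5 in *Mapk10*-/- and 471.1 in WT muscle (0.29).

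Many genes of this family stand next to each other in the genome. Ordered by lower coordinate in the GRCm38.p6 annotation, *Ecm2*, *Aspn*, *Omd* and *Ogn* follow each other on chromosome 13. Pseudogenes and snRNA, rRNA and tRNA genes were left out of this order. A gene that begins outside the run and spans it was not looked for. *Ecm2*, a leucine-rich matrix protein that is not among the 41 genes, had a signal of 125.0 in *Mapk10*-/- and 45.7 in WT muscle, 2.73-fold higher (1.45), and is next to *Aspn*. *Omd* (osteomodulin) was dim, with 7.94 in *Mapk10*-/- and 7.67 in WT muscle, and *Aspn* lay 0.87 above *Ogn* (technical SD 0.42). In the other runs of this family, in which non-coding genes lie between some members, no gene of the family passed 1.5-fold: *Dcn*, *Lum*, *Kera* and *Epyc* on chromosome 10 lay between -0.55 and 0.11, and *Optc*, *Prelp* and *Fmod* on chromosome 1 between -0.26 and 0.21. *Kera*, *Epyc*, *Optc* and *Omd* are named only for their position.

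**Figure D3:**
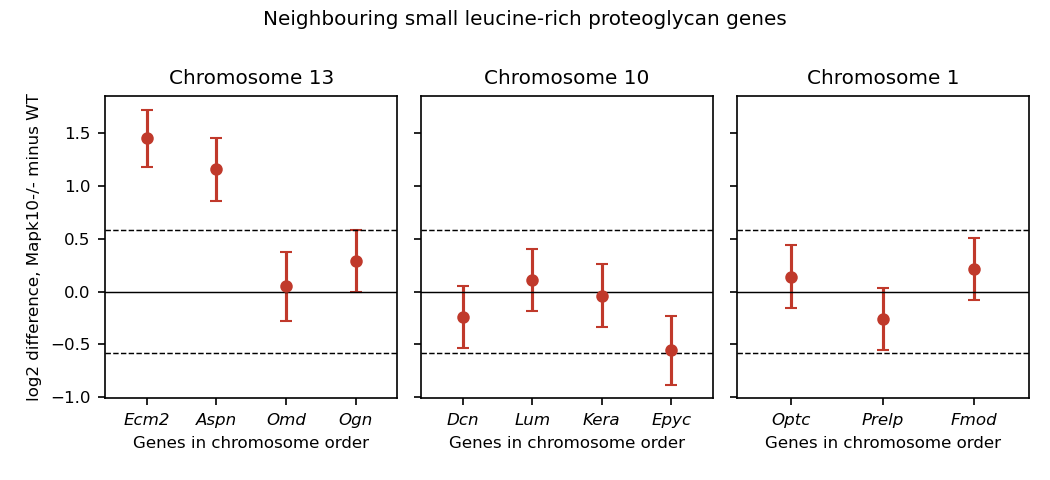
log2 difference of signal (Mapk10-/- minus WT) of neighbouring small leucine-rich proteoglycan genes in chromosome order. Bars are the technical SD and dashed lines mark 1.5-fold. Ecm2 (1.45) and Aspn (1.16) lie past the line. Omd (0.05) and Ogn (0.29) of the same run and the genes of chromosomes 10 and 1 do not.

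In the crosslinking and collagen maturation group 4 of 5 genes were measured, 0 were higher and 1 was lower, and the median was -0.23. *Lox*, the enzyme that oxidises lysines of collagen and elastin so that they crosslink, had a signal of 476.3 in *Mapk10*-/- and 784.4 in WT muscle, 1.65-fold lower (-0.72). *Loxl1*, the relative that acts on elastin, had 350.3 in *Mapk10*-/- and 433.8 in WT muscle (-0.31), and *Lox* lay 0.41 below it with a technical SD of 0.42. *Loxl2* is read only by 2 probes that are also annotated to the predicted gene *Gm21451*, and these were at 0.35 and 0.28, on the other side of 0. *Serpinh1* (HSP47), the collagen chaperone, was at -0.15, and *Pcolce*, which enhances removal of the procollagen end, was at -0.0048. *Lox* and *Loxl1* were the members of this group outside the technical SD.

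Genes that work with the members were described by lists of other genes with the same roles. Of 132 such genes measured, 4 were higher (3.03%) and 5 lower (3.79%), with a median of -0.0021. These shares are near those of all genes, 4.1% higher and 3.69% lower, and the counts of the single lists rest on few genes. Among 20 other matricellular and provisional genes 0 were higher and 2 lower, the dim *Matn4* (matrilin-4, -1.07) and *Tgfbi*, a fasciclin-domain relative of periostin. *Tgfbi* had a signal of 1964 in *Mapk10*-/- and 3565 in WT muscle (-0.86), the direction opposite to that of *Postn*. Among 17 other elastic fibre genes 2 were higher, the latent TGF-β binding protein *Ltbp4* (0.64) and *Adamtsl5* (0.77), and 0 were lower. Of 26 other proteoglycan and hyaluronan genes 2 were higher, *Ecm2* and the glypican *Gpc1* (1.10), and 1 was lower, the proteoglycan *Srgn* of blood cell granules (-0.91). Of 20 enzymes that build proteoglycan chains 0 were higher and 2 lower, the chondroitin sulfate enzymes *Chst11* (-0.79) and *Chsy3* (-0.74). The median of these 20 was -0.07, with 7 above 0 and 13 below. None of 22 collagen-modifying enzymes and chaperones and none of 14 matricellular receptors passed 1.5-fold (medians -0.12 and -0.09). None of 13 interstitial collagens passed it either, and their median was 0.24, with 10 of 13 above 0.

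**Figure D4:**
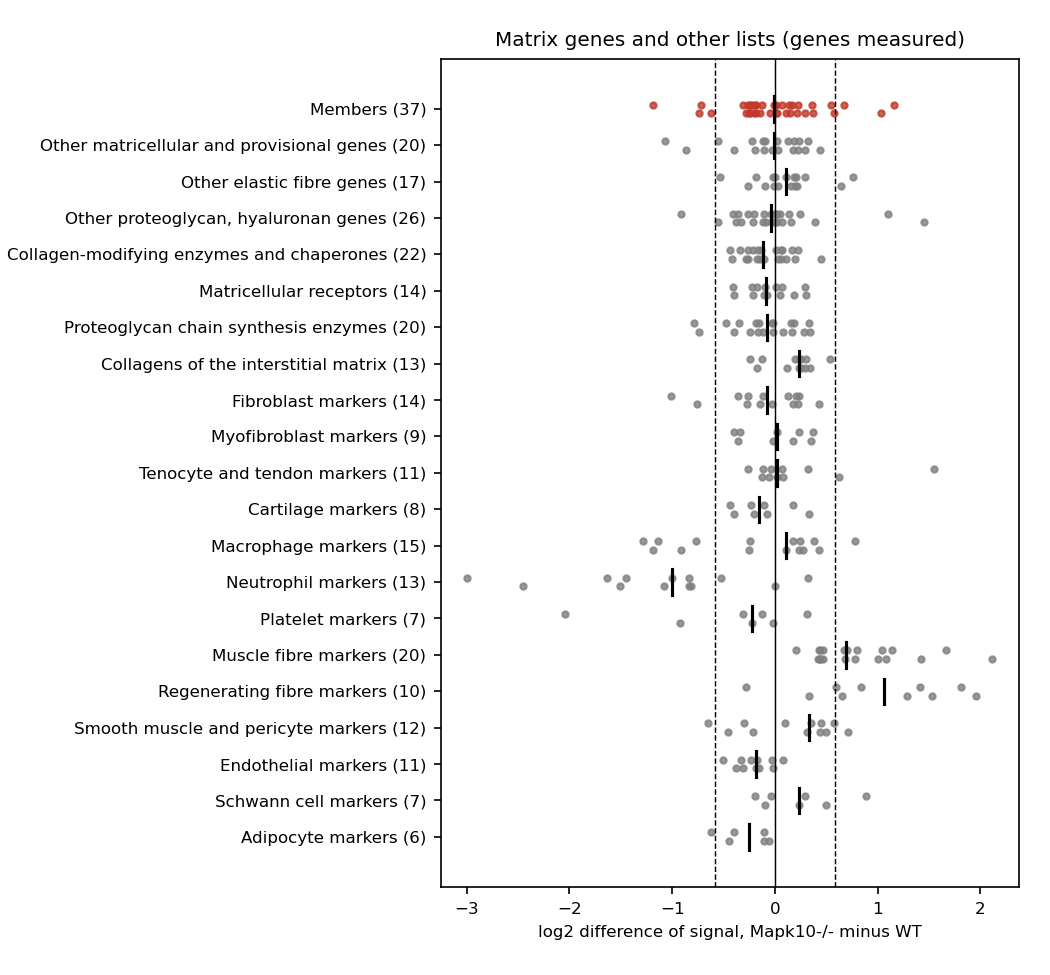
log2 difference of signal (Mapk10-/- minus WT) of each gene (points) and the median (bars) of the 37 measured members, of lists with related roles and of cell type marker lists. The number of genes measured is in brackets and dashed lines mark 1.5-fold. The medians of the members and of the matrix lists lie near 0, while muscle fibre and regenerating fibre markers lie to the right and neutrophil markers to the left.

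Among the lists of cell type markers, most genes passed 1.5-fold only for muscle fibres, regenerating fibres and neutrophils. For comparison, 4.1% of all genes were higher and 3.69% lower. For fibroblasts, 10 of 14 markers (71.4%) lay within the technical SD, near the 68.6% of all genes. Of 14 fibroblast markers 0 were higher and 2 lower, *Pdgfra*, the receptor that defines muscle-resident fibroblasts, with 373.6 in *Mapk10*-/- and 631.8 in WT muscle (-0.76), and *Pi16* (-1.01). The list median was -0.07, its summed signal was 3865 in *Mapk10*-/- and 4144 in WT muscle, and 6 of its 14 genes lay above 0 and 8 below. The fibroblast markers *Dpt* and *Thy1* were at -0.27 and -0.36, and *Prrx1*, a transcription factor of limb mesenchyme, and *Twist2* were at 0.23 and 0.43. Of 11 tenocyte and tendon markers 2 were higher, *Cilp* (1.55), a matrix protein of cartilage and tendon, and the tendon transcription factor *Scx* (0.62), and only 1 was higher after loess, after quantile normalization or with a pseudocount of 16. *Tnmd* was at 0.02, the median was 0.02 and the summed signal was 899.4 in *Mapk10*-/- and 712.9 in WT muscle. The gap of this sum came from *Cilp* (216.0 in *Mapk10*-/- and 73.8 in WT) and *Scx* (178.6 in *Mapk10*-/- and 115.8 in WT). Of the 11 tendon markers 6 lay above 0 and 5 below. Of 15 macrophage markers 1 was higher, *Gpnmb* (0.78), and 5 were lower, *Cd163* (-1.28), *Arg1* (-1.19), *Ccr2* (-1.14), *Mrc1* (-0.92) and *Itgam* (-0.77), while *Adgre1* and *Cd68* were at -0.26 and 0.10. The summed macrophage signal was 18637 in *Mapk10*-/- and 18132 in WT muscle, and 8 of the 15 genes lay above 0 and 7 below. The direction of the sum rests on *Gpnmb*, whose own gap is wider (3450 in *Mapk10*-/- and 2003 in WT muscle). Of 13 neutrophil markers 10 were lower, among them *Cxcr2* (-1.63), with a summed signal of 877.3 in *Mapk10*-/- and 2165 in WT muscle. Of 7 platelet markers 2 were lower, *Ppbp* (-2.04) and *Pf4* (-0.92), and the other 5 lay between -0.31 and 0.31. The list median was -0.22. The summed signal was 748.2 in *Mapk10*-/- and 1509 in WT muscle, and came mostly from *Ppbp* and *Pf4*. Platelets and macrophages also carry *Thbs1*, and a tie of its difference to these markers was not tested. Of 20 muscle fibre markers 12 were higher, with a summed signal of 72949 in *Mapk10*-/- and 51287 in WT muscle. Of 10 regenerating fibre markers 8 were higher, among them embryonic myosin *Myh3* (1.81), with a summed signal of 2790 in *Mapk10*-/- and 1370 in WT muscle. None of 9 myofibroblast, 8 cartilage and 11 endothelial markers passed 1.5-fold (medians 0.02, -0.15 and -0.19). Of 12 smooth muscle and pericyte markers 8 lay above 0, with a median of 0.33 and a summed signal of 3626 in *Mapk10*-/- and 2873 in WT muscle. Of these *Abcc9* was higher (0.71) and *Cnn1* lower (-0.66). Of 7 Schwann cell markers *Cdh19* was higher (0.89), with a median of 0.24, and of 6 adipocyte markers *Plin1* was lower (-0.62), with a median of -0.25. With a pseudocount of 16, 0 smooth muscle and pericyte markers and 0 adipocyte markers were lower and 0 Schwann cell markers were higher, and the Schwann cell count was also 0 with dim values raised. *Matn4*, *Cnn1*, *Cdh19*, *Gpnmb*, *Itgam*, *Prrx1* and *Twist2* lie outside the rule for named genes and were chosen after their values were seen. No marker was listed at 0 on either array. The part of these cell types in the difference of any member was not tested.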

How the data were processed

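Total RNA of gastrocnemius muscle, pooled from 3 mice per genotype on day 3 after hindlimb ischemia, was labelled with biotin and hybridised to Affymetrix MoGene 2.0 ST arrays. The deposited table holds the authors' processed intensity of each probe on a linear scale. No source used here gives the software, background correction, summarisation or normalization. The means of all probes were 141.9 (*Mapk10*-/-) and 141.8 (WT), and 582 genes, of which 0 were members, had the same value on both arrays.

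Of 41345 probes, 23521 had 1 symbol in the GEO platform annotation, 1820 several and 16004 none. Through their gene IDs, 23328 probe entries with 1 symbol were found in RefSeq (GRCm38.p6) and took its symbol, whether or not it differed. Each gene was taken from its probe with the highest mean signal. Differences are log2 of the *Mapk10*-/- intensity minus log2 of the WT intensity, with no pseudocount and no filter. A rule of 1.5-fold (0.58 on the log2 scale) stands in for a test, since 1 array per genotype gives none. Precision is limited by the count of arrays. The technical SD is the SD of the disagreement of both probes divided by the square root of 2. It was estimated within 4 equal classes of mean signal, ran from 0.27 to 0.33 across them, and was applied also to genes with 1 probe. Whether both probes read the same transcripts was not checked.

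All members are named, and of each other list at most the 4 genes past 1.5-fold with the largest differences and at least the median signal (55.8), besides *Mapk10*, sex-linked genes and the markers *Pdgfra*, *Dpt*, *Thy1*, *Scx*, *Tnmd*, *Adgre1* and *Cd68*. The members, lists and rules were chosen with earlier results of these data known. The pairs of members set against each other and the genes named for their position were picked after their values were seen. The alternatives were median centring, loess (span 0.3), quantile normalization, the mean of probes, values under the 25th percentile raised to it, a pseudocount of 16, probes with several symbols, brighter genes only and a 2-fold rule. The steps were tested on simulated data. Calculations used statsmodels 0.14.6, scipy 1.17.1, pandas 2.3.3 and numpy 2.4.6 in Python 3.11.15, and plots were drawn with matplotlib 3.10.9.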

Additional observations from a re-analysis of the deposited data

How the results depend on the processing

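No paired analysis was possible because there is 1 array of either genotype, and none of the alternatives measures variation between mice. All 7 members past 1.5-fold (*Aspn*, *Postn*, *Mfap5*, *Vcan*, *Efemp1*, *Lox* and *Thbs1*) passed it under each of the 8 alternatives that kept this rule. Several of these alternatives could hardly move them. Each of the 7 is read by 1 probe and is brighter than the median of all genes. The mean of probes, raised dim values and brighter genes only therefore kept their values by construction. Probes with several symbols left them unchanged too, and centring moved every gene by 0.02. Of these 7, the nearest to the line was *Thbs1*, from -0.65 to -0.60, then *Mfap5*, from 0.61 to 0.70. *Mfap4* also passed after centring (0.59), loess (0.61) and quantile normalization (0.62). *Eln*, *Fbln5*, *Thbs4*, *Tnxb* and *Pcolce*, all near 0, took the other sign under at least 1 alternative, as did *Fmod* as the mean of its probes. At 2-fold, which by construction passes fewer genes, 2 members were higher (*Aspn* and *Postn*) and 1 was lower (*Vcan*), 2 genes of the related lists were higher and 1 lower, and 183 of all genes were higher and 135 lower. Of all genes, 910 were higher and 819 lower at 1.5-fold. With dim values raised 491 were lower, with a pseudocount of 16 572 were higher and 263 lower, and among brighter genes, of which there are fewer, 268 were lower. A pseudocount and raised dim values draw differences of dim genes toward 0 by construction. *Fbn2* and *Chad*, the dimmest members, have the least signal behind their values, and no background value was analysed here.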
